A study of Mus musculus with 8 samples.

Results

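The lysozyme, alpha-defensin, angiogenin, matrilysin, intelectin and REG genes of the intestinal epithelium were followed in sorted tuft cells of mouse jejunum as 10 genes, namely Lyz1, Lyz2, Defa24, Ang4, Mmp7, Itln1, Reg3a, Reg3b, Reg3g and Reg4. They were taken by symbol from the table of 35199 listed genes. Each of the 10 had 1 row, and all 10 were among the 12849 genes kept by the filter on low counts. The series compared bulk RNA of cells from 4 mice given the muscarinic antagonist scopolamine with that of cells from 4 sham mice, 1 library per mouse. Every mouse carried the Dclk1-DTR-ZSgreen transgene, a bacterial artificial chromosome in which Dclk1 sequence drives the diphtheria toxin receptor and the green fluorescent protein ZSgreen, made in CBA × C57BL/6J oocytes and backcrossed to C57BL/6J. Pumps were implanted at 8 to 10 weeks of age and delivered 0.5 mg scopolamine per kg body weight per day, or sodium chloride in the sham group, for 7 days. Both sexes were used in the study, and the labels do not give the sex of single mice. From each mouse 3000 cells (replicate 1 of either group) or 4000 cells that were live, high for the marker written as EPC and ZSgreen-positive were sorted, so a cell entered a library by its transgene signal and not by a tuft cell protein. ZSgreen-negative cells were not analysed here.

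Paneth cells sit at the base of the small intestinal crypts and release granules that hold lysozyme, alpha defensins and other antimicrobial proteins. The REG proteins are small secreted lectins. Enterocytes and Paneth cells make REG3 proteins in response to microbes and to cytokines such as interleukin 22, whereas REG4 marks Paneth-like and enteroendocrine cells. Tuft cells are chemosensory cells that are known for Dclk1 and Trpm5 and not for granule proteins of this kind.

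The total estimated count per library was 14343362 to 20857433 with scopolamine and 25769940 to 41428916 in sham, so that every sham library was the deeper. Sham replicates 1 and 3 were amplified from 200 pg of RNA over 15 cycles, and the other 6 libraries from 1000 pg over 10 cycles. The mouse IDs begin with M for scopolamine replicates 1 to 3 and sham replicate 1, and with N for scopolamine replicate 4 and sham replicates 2 to 4, a letter that the sources do not explain. Depth and treatment, and in part input and treatment, therefore cannot be told apart. A level of 3 counts, used as the floor, lay between 0.0724 and 0.209 CPM, the counts scaled to the size of the library with TMM factors. The summed level of 12 tuft cell markers was 13158 to 23096 CPM with scopolamine and 16322 to 19682 CPM in sham, so markers of the labelled cell type were present in every library. In bulk RNA, fewer cells of a type and less RNA per cell cannot be told apart.

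The promoters of the lysozyme and REG3 pairs are shown because the members of each pair lie in the same gene cluster and the levels below compare them with each other. Lyz1 and Lyz2 lie side by side on chromosome 10 of GRCm38, from 117287797 to 117292868 and from 117277331 to 117282321, both on the minus strand. Reg3b (78370657 to 78373466, plus strand), Reg3a (78380709 to 78383827, plus strand) and Reg3g (78466269 to 78468872, minus strand) lie on chromosome 6, with Reg3a between the other two. The windows below hold the 120 bases from 170 to 51 bases before the RefSeq start of each gene on GRCm38.p6, read 5′ to 3′ on the strand of the gene. None of the 4 windows overlaps an annotated exon. The RefSeq start of Reg3b, 78370885, lies 228 bases inside the GENCODE gene, so its window falls within the printed gene span, in the first intron of the transcript that starts farthest upstream. Capitals mark the 1 match to the STAT motif TTCNNNGAA, which reads the same on both strands.
Lyz1, chr10:117292919-117293038, minus strand: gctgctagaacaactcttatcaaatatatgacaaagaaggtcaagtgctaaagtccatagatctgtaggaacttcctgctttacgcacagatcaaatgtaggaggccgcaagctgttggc
Lyz2, chr10:117282323-117282442, minus strand: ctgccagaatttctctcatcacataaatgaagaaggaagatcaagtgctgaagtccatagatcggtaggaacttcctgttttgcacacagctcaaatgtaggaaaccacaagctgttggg
Reg3b, chr6:78370715-78370834, plus strand: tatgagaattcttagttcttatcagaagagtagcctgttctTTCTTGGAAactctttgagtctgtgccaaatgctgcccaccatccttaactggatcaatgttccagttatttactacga
Reg3g, chr6:78468925-78469044, minus strand: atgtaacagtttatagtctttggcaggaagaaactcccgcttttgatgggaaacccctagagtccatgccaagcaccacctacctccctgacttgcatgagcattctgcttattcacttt
The Lyz1 and Lyz2 windows were identical at 99 of 121 aligned positions (81.8%), the Reg3b and Reg3g windows at 71 of 122 (58.2%), and pairs of a lysozyme with a REG3 window at 44.6% to 47.7%. The first base of the Reg3b match lay 129 bases before the start. Over the 300 bases from 250 before to 50 after the start, TTCNNNGAA was found in Ang4 and Reg3b of the 9 genes with a RefSeq promoter entry and in 8.30% of 32851 promoters. The TCF motif ATCAAAG, searched on both strands, was found in Mmp7, Reg3a and Reg3g, and in 3.73% of all promoters. The TATA motif TATAAA, searched on both strands as well, was found in Mmp7, Reg3b and Reg3g, and in 13.6% of all promoters. These matches describe letters in a window and not binding. Defa24 has no entry.

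Between the groups, all 10 genes had a higher fitted level with scopolamine, and none of the 10 passed the test. Log2 fold changes from edgeR's quasi-likelihood test ran from 0.19 for Reg4 to 3.49 for Itln1, with a median of 1.73 over the 10 genes and of -0.01 over all 12849 genes tested, of which 49.1% were higher. Benjamini-Hochberg adjusted p-values of the 10 genes ran from 0.812 to 0.996, and 0 genes of the whole table (0%) had an adjusted p under 0.1 in this fit. At an unadjusted p under 0.05, 2 of the 10 genes were higher (Itln1 and Reg3g), beside 3.33% of all genes tested. The levels of the groups overlapped for each of the 10 genes, whereas the groups did not overlap for 3.88% of all genes. DESeq2 also called none of the 10 genes, beside 0.66% of the 21805 genes with a count called as higher. It gave 3 of them an unadjusted p under 0.05 (Itln1, Reg3a and Reg3g), beside 4.34% of the genes to which it gave a p, and, because of its handling of outlying counts, gave no p for Lyz1 and Reg4. Scopolamine replicate 4 was the highest of the 8 libraries for 7 of the 10 genes, scopolamine replicate 2 for Ang4 and Reg3a, and scopolamine replicate 3 for Lyz2. Scopolamine replicate 4 was the highest library for 14.2% of all genes tested.

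**Figure D1:**
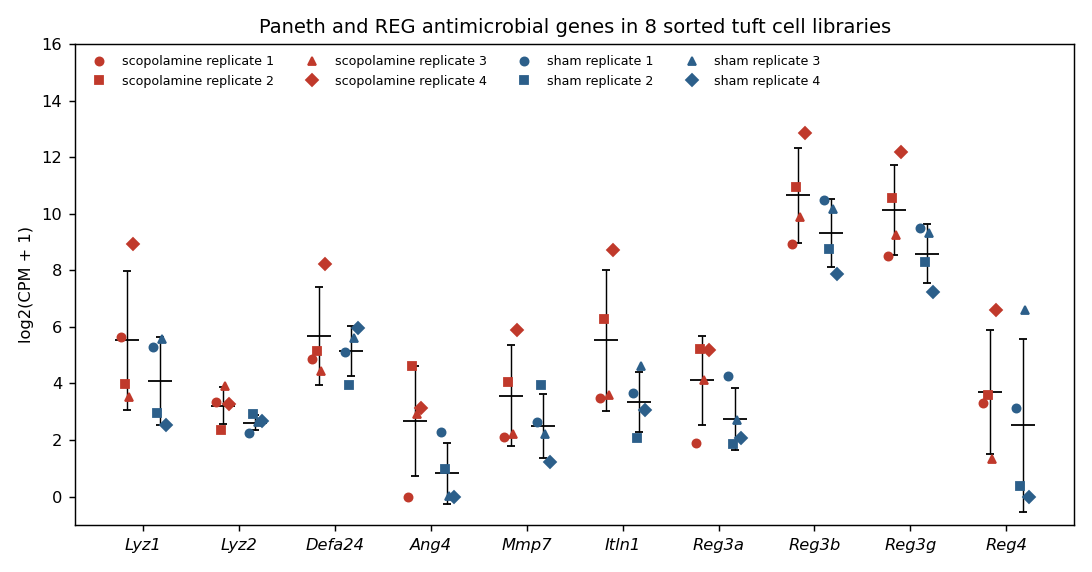
Level of each gene as log2(CPM + 1) in the 4 scopolamine (red) and 4 sham (blue) libraries, 1 marker shape per replicate number, with the mean and SD of each group on this scale in black. Scopolamine replicate 4 (red diamonds) is the highest library for 7 of the 10 genes, and the groups overlap for all 10.

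Lysozyme cleaves the peptidoglycan of bacterial walls, and mice have a Paneth form, Lyz1, and a form of macrophages and other myeloid cells, Lyz2. Lyz1 was measured at 49.1, 14.8, 10.5 and 488 CPM in scopolamine replicates 1 to 4 and at 37.9, 6.79, 47.1 and 4.78 CPM in sham replicates 1 to 4. The replicate 4 library alone held 86.8% of the summed scopolamine level and stood 9.94-fold above the next library, while the other 3 scopolamine libraries fell within the sham range or just above it. The means were 141 ± 232 CPM (SD, n = 4) and 24.1 ± 21.5 CPM (SD, n = 4), for a log2 fold change of 2.54 (SE 1.20, the standard error, adjusted p = 0.812 in edgeR; two-sided exact permutation test on log2(CPM + 1), p = 0.4). Without scopolamine replicate 4 the log2 fold change was 0.04 and the ratio of the means was 1.03 in place of 5.82.

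Lyz2 was the steadiest of the 10 genes. It was measured at 9.18, 4.13, 13.9 and 8.67 CPM in scopolamine replicates 1 to 4 and at 3.79, 6.50, 5.28 and 5.32 CPM in sham replicates 1 to 4. In scopolamine replicate 4, where Lyz1 was so high, Lyz2 lay between scopolamine replicates 1 and 2, and 3 of the 4 scopolamine libraries were above every sham library. The means were 8.97 ± 4.00 and 5.22 ± 1.11 CPM (SD, n = 4 each), for a log2 fold change of 0.78 (SE 0.53, adjusted p = 0.851 in edgeR; exact permutation p = 0.114), and the highest library was 3.67-fold above the lowest. The ratio of Lyz1 to Lyz2 counts ran from 0.751 in scopolamine replicate 3 to 56.3 in scopolamine replicate 4, a 75.0-fold range. Of the 31-base words of the Lyz1 transcripts, 34.2% also occur in Lyz2, and 32.8% of those of Lyz2 occur in Lyz1, so some reads of the pair can be assigned to either gene. The summed lysozymes had a log2 fold change of 2.35 (SE 1.003, adjusted p = 0.814 in edgeR).

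Macrophages are the best known source of Lyz2, and 9 macrophage and leukocyte markers other than Lyz2 were measured beside it. The sort kept live, EPC-high and ZSgreen-positive cells, a gate that should leave out leukocytes. Csf1r, Adgre1, C1qa, C1qb and C1qc each had at most 16 counts in any library. Cd68 reached 65 counts (3.08 CPM, scopolamine replicate 4), Cd14 301 counts (14.1 CPM, scopolamine replicate 2) and Itgam 463 counts (11.5 CPM, sham replicate 3). In scopolamine replicate 3, the highest library for Lyz2, Itgam and Ptprc were also at their highest CPM, 15.5 and 129.8. Cd14 and Cd68 were not, at 1.84 and 1.62 CPM there, and both were higher in scopolamine replicate 4. The sum of the 9 markers, most of it Ptprc (log2 fold change 0.07), was 49.4 to 151 CPM with scopolamine and 62.9 to 135 CPM in sham. It was highest in scopolamine replicate 3 and lowest in scopolamine replicate 4, as was the summed level of the tuft cell markers (23096 and 13158 CPM). Whether the Ptprc RNA came from leukocytes or from the tuft cells was not tested. The part of macrophages and other leukocytes in the Lyz2 level was not tested either.

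Alpha defensins are short cationic peptides that Paneth cell granules hold as precursors, and matrilysin, the product of Mmp7, cuts mouse precursors into the active form. Defa24 (chromosome 8 from 21734494 to 21735471, plus strand) was measured at 27.8, 34.4, 20.8 and 300.3 CPM in scopolamine replicates 1 to 4 and at 33.5, 14.3, 48.0 and 61.6 CPM in sham replicates 1 to 4. Apart from scopolamine replicate 4, which held 78.4% of the summed scopolamine level, sham replicates 4 and 3 were the highest. The means were 95.8 ± 136 and 39.3 ± 20.3 CPM (SD, n = 4 each), for a log2 fold change of 1.28 (SE 0.82, adjusted p = 0.839 in edgeR; exact permutation p = 0.714). Without scopolamine replicate 4 the log2 fold change turned to -0.53 and the ratio of means from 2.44 to 0.703.

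Defa24 is 1 of 28 listed alpha-defensin genes, of which 26 had a count. Their summed level was 43.3, 65.6, 34.4 and 1544 CPM in scopolamine replicates 1 to 4 and 119, 21.4, 71.1 and 89.2 CPM in sham replicates 1 to 4. The replicate 4 library of the scopolamine group was thus 12.9-fold above the next, and the composition of its defensins differed as well. Defa24 made up 64.0%, 52.3%, 60.4% and 19.4% of alpha-defensin counts in scopolamine replicates 1 to 4, and 28.0%, 66.4%, 67.4% and 69.0% in sham replicates 1 to 4. Defa24 was therefore the smaller share in scopolamine replicate 4 and sham replicate 1, the 2 libraries with the highest defensin sums, and more than 50% in the other 6. Of the 14 other alpha defensins tested, 14 had a higher fitted level with scopolamine, none passed the test (0 of 14, median log2 fold change 3.30), and all 14 had their highest level in scopolamine replicate 4. Without that library 2 of the 14 were higher and 12 lower, with a median of -0.99. Gm7861 was the most abundant of the 14, at 194 CPM in scopolamine replicate 4 and at most 11.3 CPM elsewhere. Defa17, Defa20 and AY761184, with log2 fold changes of 3.28, 4.83 and 3.97, had an unadjusted p under 0.05 in edgeR, beside 3.33% of all genes tested and higher. Their adjusted p was 0.812 each in edgeR, and their exact permutation p was 0.257, 0.943 and 0.429. Since 57.1% of the 31-base words of Defa24 occur in 30 other genes, most of all Defa30 (46.3%), the split of reads among single defensins is uncertain. The sum over all alpha defensins had a log2 fold change of 2.49 (SE 1.16, adjusted p = 0.814 in edgeR; exact permutation p = 0.771).

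Mmp7 (chromosome 9 from 7692090 to 7699585, plus strand) was measured at 3.26, 15.7, 3.67 and 58.5 CPM in scopolamine replicates 1 to 4 and at 5.27, 14.4, 3.60 and 1.31 CPM in sham replicates 1 to 4. Scopolamine replicate 4 was again the highest, with 72.1% of the scopolamine sum, and scopolamine replicate 2 and sham replicate 2 followed at nearly the same level. The means were 20.3 ± 26.1 and 6.14 ± 5.73 CPM (SD, n = 4 each), for a log2 fold change of 1.72 (SE 0.98, adjusted p = 0.817 in edgeR; exact permutation p = 0.371), 0.30 without scopolamine replicate 4 and 2.58 without sham replicate 2. Mmp7 overlaps AV064505, with which it shares 9.06% of its 31-base words.

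Angiogenin 4, the product of Ang4, is a ribonuclease of Paneth and goblet cells with activity against bacteria, and it followed another order of libraries. Ang4 (chromosome 14 from 51763878 to 51773590, minus strand) was listed at 0, 23.6, 6.50 and 7.81 CPM in scopolamine replicates 1 to 4 and at 3.83, 0.949, 0.0248 and 0 CPM in sham replicates 1 to 4, from 504 counts in scopolamine replicate 2 to 0 counts in scopolamine replicate 1 and sham replicate 4. The 3 scopolamine libraries with any Ang4 were above all 4 sham libraries, and the fourth was below the floor. The means were 9.49 ± 10.03 and 1.20 ± 1.81 CPM (SD, n = 4 each), for a log2 fold change of 2.99 (SE 1.79, adjusted p = 0.828 in edgeR; exact permutation p = 0.2). Leaving out scopolamine replicate 4 left it at 3.06, and leaving out scopolamine replicate 2 lowered it to 1.98. Sham replicate 1 held 79.7% of the sham sum, and without it the value was 4.84 (unadjusted p = 0.0418 and adjusted p = 0.523 in edgeR). Ang, which codes for the angiogenin expressed in many tissues, was more even, at 13.6 to 19.6 CPM with scopolamine and 9.30 to 19.5 CPM in sham. Summed with Ang, the angiogenins did not overlap between the groups, for a log2 fold change of 0.73 (SE 0.36, adjusted p = 0.814 in edgeR; exact permutation p = 0.0286, the smallest that 4 against 4 allow). The lowest scopolamine sum was only 1.01-fold the highest sham sum.

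Intelectin 1, the product of Itln1, is a lectin of Paneth and goblet cells that binds sugars of microbial walls. Itln1 had the largest log2 fold change of the 10 genes in the fit of all 8 libraries. Without scopolamine replicate 4 the largest was that of Ang4 (3.06), and without the 200 pg libraries that of Reg4 (7.53). Itln1 (chromosome 1 from 171518122 to 171535294, minus strand) was measured at 10.3, 77.1, 11.2 and 416 CPM in scopolamine replicates 1 to 4 and at 11.8, 3.16, 23.3 and 7.44 CPM in sham replicates 1 to 4. Scopolamine replicates 2 and 4 were above every sham library, and replicates 1 and 3 lay inside the sham range. The means were 129 ± 194 and 11.4 ± 8.67 CPM (SD, n = 4 each), for a log2 fold change of 3.49 (SE 1.13, unadjusted p = 0.0109 and adjusted p = 0.812 in edgeR; exact permutation p = 0.2). Scopolamine replicate 4 held 80.8% of the scopolamine sum, and without it the log2 fold change was 1.51 with an unadjusted p of 0.0943 in edgeR.

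The REG3 proteins bind bacterial surfaces, and REG3B and REG3G are the main antibacterial lectins of the mouse small intestine. Reg3b was by far the most abundant of the 10 genes. It was measured at 484, 1962, 952 and 7411 CPM in scopolamine replicates 1 to 4 and at 1433, 427, 1138 and 236 CPM in sham replicates 1 to 4. The 2 highest libraries were scopolamine replicates 4 and 2, the next 2 were the sham libraries made from 200 pg, and scopolamine replicate 1 was close to the low sham libraries. The means were 2702 ± 3199 and 809 ± 569 CPM (SD, n = 4 each), for a log2 fold change of 1.74 (SE 0.80, adjusted p = 0.812 in edgeR; exact permutation p = 0.257), and 0.48 without scopolamine replicate 4. Its mean level exceeded 99.8% of the detected genes.

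Reg3g followed Reg3b from library to library. It was measured at 367, 1493, 611 and 4628 CPM in scopolamine replicates 1 to 4 and at 714, 316, 640.3 and 149.8 CPM in sham replicates 1 to 4. The means were 1775 ± 1963 and 455 ± 267 CPM (SD, n = 4 each), for a log2 fold change of 1.96 (SE 0.74, unadjusted p = 0.0235 and adjusted p = 0.812 in edgeR; exact permutation p = 0.2), and 0.85 without scopolamine replicate 4. The ratio of Reg3g to Reg3b counts stayed between 0.498 and 0.761, a 1.53-fold range, while Reg3b varied 31.5-fold and Reg3g 30.9-fold between libraries. The ratio was 0.696 ± 0.073 with scopolamine and 0.609 ± 0.104 in sham (SD, n = 4 each; exact permutation p = 0.171). The pair shares under 1% of its 31-base words (0.446% of Reg3b and 0.231% of Reg3g), so few reads can be assigned to either. Reg3b and Reg3g together made up 82.1% to 94.9% of the counts of the 10 genes in every library, and the 10 genes made up 0.0444% (sham replicate 4) to 1.36% (scopolamine replicate 4) of all counts.

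Reg3a, the third REG3 gene of the cluster, was measured at 2.71, 36.2, 16.5 and 35.5 CPM in scopolamine replicates 1 to 4 and at 18.4, 2.60, 5.61 and 3.26 CPM in sham replicates 1 to 4. Here scopolamine replicates 2 and 4 were alike, and sham replicate 1 held 61.5% of the summed sham level. The means were 22.7 ± 16.2 and 7.45 ± 7.38 CPM (SD, n = 4 each), for a log2 fold change of 1.61 (SE 0.82, adjusted p = 0.812 in edgeR; exact permutation p = 0.229), 1.30 without scopolamine replicate 4 and 2.56 without sham replicate 1. Its level was 0.00479 to 0.0184 of Reg3b counts. Reg3d, the remaining REG3 gene, had at most 12 counts in any library.

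**Figure D2:**
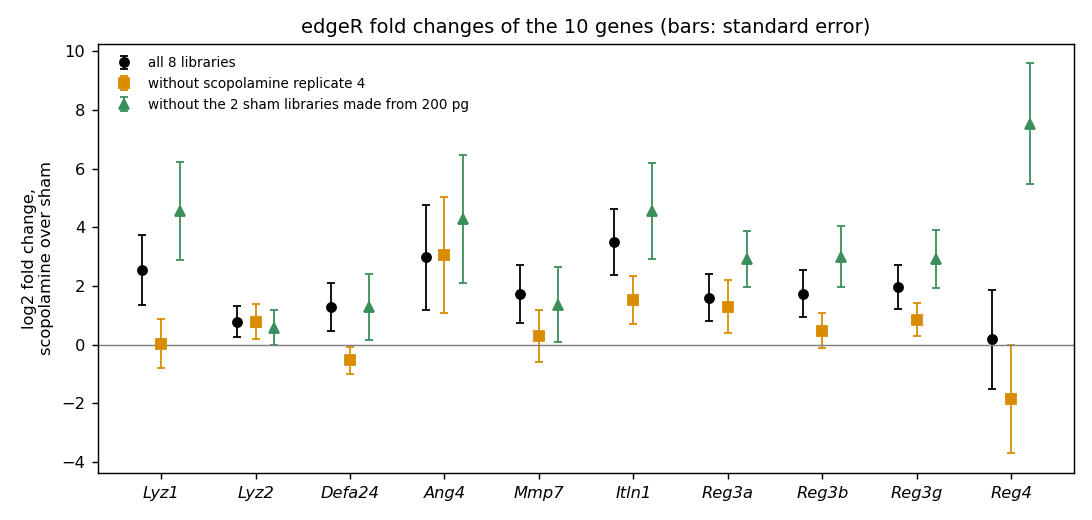
Log2 fold change of scopolamine over sham for each gene from edgeR, with its standard error, in all 8 libraries (black), without scopolamine replicate 4 (orange) and without the 2 sham libraries made from 200 pg (green). Without scopolamine replicate 4 the values of Lyz1 and Mmp7 lie near 0 and those of Defa24 and Reg4 below it, whereas Lyz2 and Ang4 keep theirs.

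Reg4 (chromosome 3 from 98222156 to 98236748, plus strand) had the least even levels, and it was measured at 8.83, 11.1, 1.48 and 96.6 CPM in scopolamine replicates 1 to 4 and at 7.85, 0.292, 95.7 and 0 CPM in sham replicates 1 to 4. A single library of either group carried it, with 81.8% of the sum in scopolamine replicate 4 and 92.2% in sham replicate 3, and these libraries had nearly the same level. The means were 29.5 ± 44.9 and 26.0 ± 46.6 CPM (SD, n = 4 each), for a log2 fold change of 0.19 (SE 1.68, adjusted p = 0.996 in edgeR; exact permutation p = 0.457). The value turned to -1.85 without scopolamine replicate 4 and was 3.46 without sham replicate 3. It was 7.53 without both 200 pg libraries (SE 2.06, unadjusted p = 0.00541 and adjusted p = 0.415 in edgeR) and 7.54 with amplification cycles as a covariate, where sham replicates 2 and 4, at 0.292 and 0 CPM, are the sham libraries of 1000 pg.

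Some enteroendocrine markers were high in the same libraries as Reg4. Chga, the chromogranin of endocrine granules, was measured at 62.1, 74.5, 9.96 and 182 CPM in scopolamine replicates 1 to 4 and at 0.341, 1.92, 178 and 0.956 CPM in sham replicates 1 to 4. The sum of 8 enteroendocrine markers (Chga, Chgb, Tac1, Tph1, Cck, Gip, Neurod1 and Pyy) was 264, 547, 237 and 752 CPM with scopolamine and 25.8, 16.2, 711 and 21.0 CPM in sham. Sham replicate 3 was the highest sham library for 7 of these 8 genes, and scopolamine replicate 4 the highest of all libraries for 3. Chga, Chgb and Cck, the most abundant of them, had log2 fold changes of 0.86, 2.09 and 0.58. Of the 8 markers 7 were higher and 1 lower, for a median of 1.68 (1.44 without scopolamine replicate 4), and none passed the test in edgeR. Other markers of the list had another order. Pyy was at its lowest in scopolamine replicate 4 (0.0474 CPM), Gip was at 2.89 CPM there and at 0 in sham replicate 3 with its highest level in scopolamine replicate 3 (57.2 CPM), and Tph1 was highest in scopolamine replicate 2 (50.7 CPM). Sham replicate 1, with Reg4 at 7.85 CPM, had Chga at 0.341 CPM and Chgb at 24.4 CPM, where sham replicates 2 and 4 had Chgb at 1.73 and 1.37 CPM. The part of these markers in the Reg4 level was not tested.

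**Figure D3:**
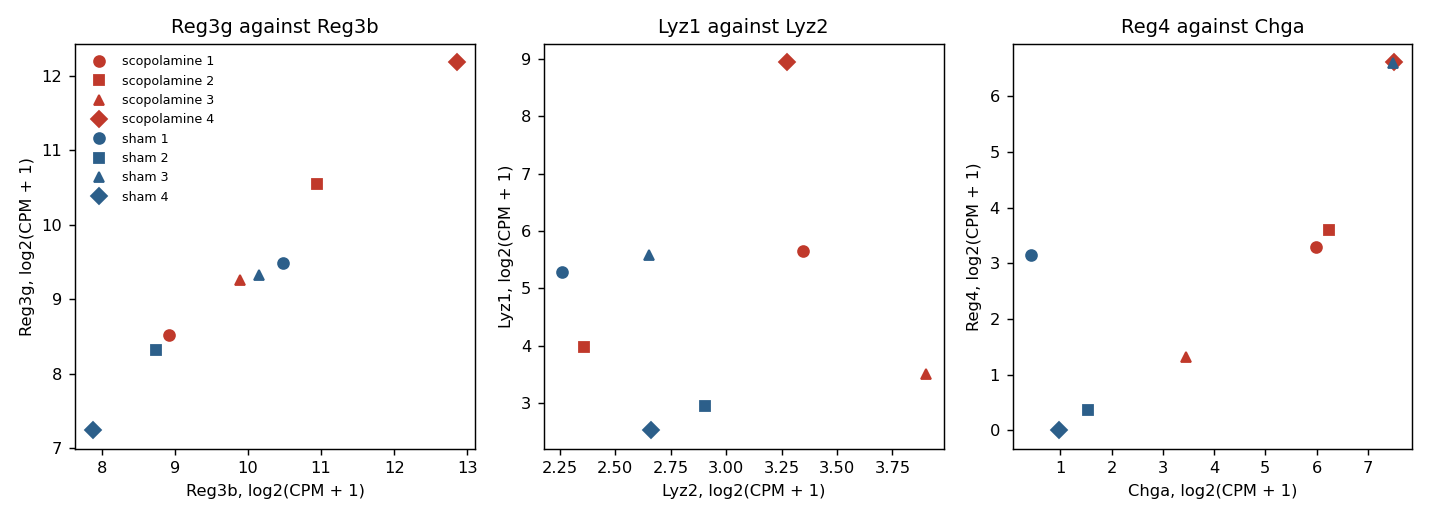
Levels as log2(CPM + 1) of Reg3g against Reg3b, Lyz1 against Lyz2 and Reg4 against Chga in the 4 scopolamine (red) and 4 sham (blue) libraries, 1 point per library. Reg3g keeps 0.498 to 0.761 of Reg3b counts across libraries, Lyz1 runs from 0.751 to 56.3 times Lyz2, and the highest values of both Reg4 and Chga are those of scopolamine replicate 4 and sham replicate 3.

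Per kilobase of exon, which allows genes to be compared, the mean levels in the scopolamine and sham groups were 2366 and 708 CPM for Reg3b and 840 and 215 CPM for Reg3g. Defa24 (229 and 93.9), Lyz1 (111 and 19.1) and Itln1 (113 and 10.02) came next by the scopolamine means. Reg4 (28.9 and 25.4), Reg3a (27.5 and 9.04), Mmp7 (19.0 and 5.75), Ang4 (13.4 and 1.69) and Lyz2 (6.82 and 3.97) followed. The order of the means was not the same in sham, where Reg4 was above Lyz1 and Itln1, and Itln1 and Reg3a were close. That place of Reg4 came from sham replicate 3, at 93.7 CPM per kilobase. In sham replicates 1, 2 and 4 Reg4 was below both Lyz1 and Itln1. Scopolamine replicate 4 held 65.2% to 86.8% of the scopolamine sum of Lyz1, Defa24, Mmp7, Itln1, Reg3b, Reg3g and Reg4. Without it the scopolamine means per kilobase were 992 CPM for Reg3b, 390 for Reg3g, 66.0 for Defa24, 28.8 for Itln1, 19.6 for Lyz1, 7.07 for Mmp7 and 6.99 for Reg4. Many neighbours in this order overlap between libraries, whereas Defa24 was above Ang4 and Lyz2 in all 8.

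Scopolamine replicate 4, taken out of the comparison, changed the picture of the 10 genes as a whole. Without it 8 genes were higher and 2 lower (Defa24 and Reg4), the median log2 fold change was 0.64 beside -0.02 for all genes, and 0 of the 10 had an unadjusted p under 0.05 in edgeR, beside 2.06% of all genes tested in that fit and higher. By the rule that a library carries a gene when it holds over 80% of the group sum, this library carried Lyz1, Itln1 and Reg4. Its tuft cell marker sum was the lowest of the 8 libraries, at 13158 CPM, and its enteroendocrine sum the highest, at 752 CPM. Its goblet sum of 1111 CPM was below scopolamine replicates 1 and 2 and sham replicates 1 and 3 (1380 and 1181 CPM). It was above scopolamine replicate 3 (684 CPM) and sham replicates 2 and 4 (353 and 356 CPM). Its enterocyte sum of 2973 CPM was the lowest of the scopolamine group, above sham replicates 2 to 4 (2496 to 2516 CPM) and below sham replicate 1 (6305 CPM). The part of the makeup of that library in these values was not tested. It was also the only scopolamine library whose mouse ID begins with N. With only 1 scopolamine library under N and 1 sham library under M, no spread could be had within a letter for both groups, and with the letter as a covariate the median log2 fold change of the 10 genes was 1.75, with 0 of them called in edgeR. In the other direction, a fit without both 200 pg sham libraries gave a median log2 fold change of 2.96 beside 0.000709 for all genes. In that fit 6 of the 10 genes (Lyz1, Itln1, Reg3a, Reg3b, Reg3g and Reg4) had an unadjusted p under 0.05 beside 6.04% of all genes tested in it, and none an adjusted p under 0.1.

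**Figure D4:**
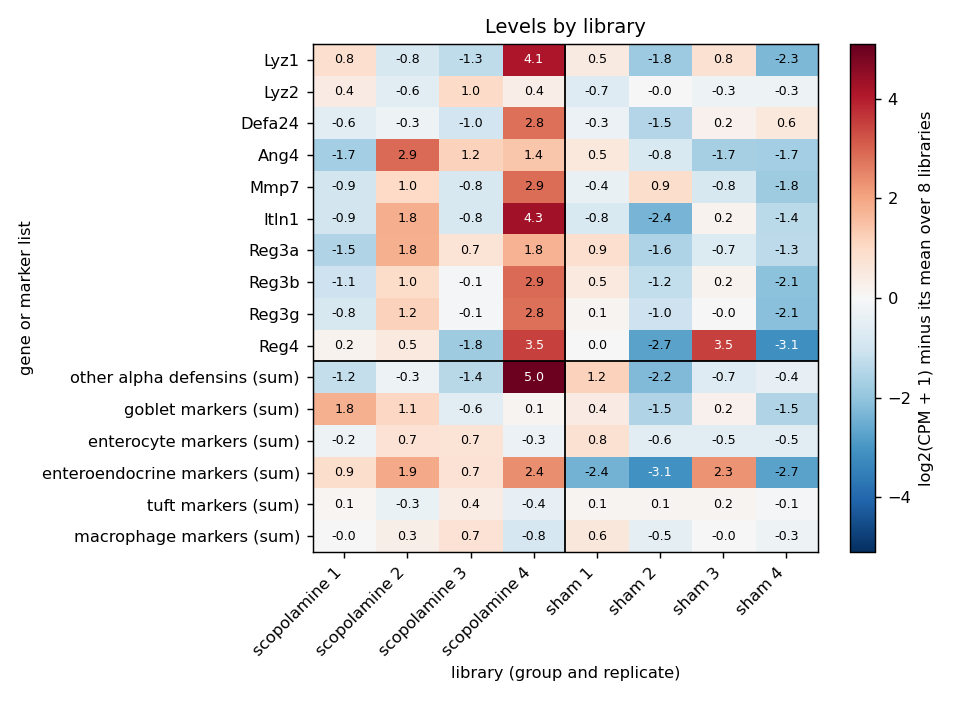
Log2(CPM + 1) minus its mean over the 8 libraries for the 10 genes (upper rows) and for summed lists of other alpha defensins and cell type markers (lower rows), 1 column per library, red above and blue below the mean. Scopolamine replicate 4 stands out for the defensins and 7 of the 10 genes and its tuft cell sum is the lowest of the 8, and Reg4 and the enteroendocrine sum are both high in scopolamine replicate 4 and sham replicate 3. The row of macrophage markers is mostly Ptprc, the source of which was not tested.

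Markers of neighbouring cell types were present in all libraries. The sum of 8 goblet markers was 684 to 3549 CPM with scopolamine and 353 to 1380 CPM in sham. It was highest in scopolamine replicate 1, where Lyz1 was second to scopolamine replicate 4 and Itln1 and Reg3b were low. Of the goblet markers 7 were higher and 1 lower (median log2 fold change 0.94), with Zg16, a lectin of goblet granules, the 1 gene at an unadjusted p under 0.05 (log2 fold change 2.54), and Tff3 and Fcgbp the other most abundant ones at 0.49 and 1.17. Of 8 enterocyte markers 8 were higher (median 1.48), with Anpep and Apoa4 at an unadjusted p under 0.05 and Fabp1 (0.15), Apoa1 (1.79) and Rbp2 (1.33) the most abundant. Of 12 tuft cell markers 3 were higher and 9 lower (median -0.09), and of 4 stem cell markers 4 were lower (median -0.26). Among abundant tuft cell markers, Dclk1 was at 3439 to 5734 CPM over all libraries and Avil at 1401 to 3017 CPM. The stem cell markers Lgr5, Ascl2 and Smoc2 had log2 fold changes of -0.51, -0.18 and -0.34. The sum of 6 T cell markers was 19.6 to 85.4 CPM with scopolamine and 1.85 to 103 CPM in sham, led by Gzma, Gzmb and Cd3e (log2 fold changes 0.22, 2.03 and 0.59). None of these lists had a gene past the test in edgeR. The part of any of these cell types in the levels of the 10 genes was not tested.

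Of a further list of secreted or surface proteins reported in Paneth cells, several of which other epithelial cells also make, 6 passed the filter, of which 4 were higher and 2 lower, for a median log2 fold change of 0.49 and none past the test. These were Clps, Pnliprp2, Habp2, Ang, Guca2b and Lypd8, so most are not granule proteins specific to Paneth cells. Guca2b, the uroguanylin of enterocytes, was at 23.3 to 74.0 CPM with scopolamine and 4.24 to 64.4 CPM in sham. Lypd8, which codes for a protein that holds flagellated bacteria away from the epithelium, was the most abundant, at 512, 1478, 901 and 1915 CPM in scopolamine replicates 1 to 4 and 600.1 to 910 CPM in sham (log2 fold change 0.78, standard error 0.34, unadjusted p = 0.0431 and adjusted p = 0.812 in edgeR). Of 13 regulators of the Paneth lineage, 6 were higher and 7 lower with a median of -0.03. The most abundant were Cd24a (-0.28), Sox9 (-0.32), a transcription factor that Paneth cells need, and Xbp1 (0.23), a factor of the secretory stress response. Their median was close to that of all genes tested (-0.01).

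Reg1, a secreted REG protein gene outside the 10, was measured at 59.3, 186, 26.1 and 204 CPM in scopolamine replicates 1 to 4 and at 42.4, 14.1, 13.7 and 3.62 CPM in sham replicates 1 to 4. Sham replicate 1 was above scopolamine replicate 3, and otherwise the groups were separate. Its log2 fold change was 2.69 (SE 0.77, unadjusted p = 0.00548 and adjusted p = 0.812 in edgeR; exact permutation p = 0.0571), and DESeq2 gave it an adjusted p of 0.0349. Reg2 had a log2 fold change of 0.20.

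REG3 genes are induced through interleukin 22, STAT3 and microbial sensing, and 11 genes of that pathway passed the filter. Of these 8 were higher and 3 lower, for a median log2 fold change of 0.23 and none past the test in edgeR. The most abundant were Il10rb, a subunit of the interleukin 22 receptor, Stat3, the transcription factor downstream of it, and the fucosyltransferase Fut2, with log2 fold changes of -0.25, 0.23 and 0.09. Socs3, a target of STAT3 that feeds back on it, was measured at 5.17, 5.58, 6.92 and 10.9 CPM in scopolamine replicates 1 to 4 and at 0.0379, 4.75, 0.0744 and 0.239 CPM in sham replicates 1 to 4. The groups did not overlap, with sham replicate 2 close to the scopolamine libraries (log2 fold change 2.48, SE 1.32, unadjusted p = 0.0875 and adjusted p = 0.813 in edgeR; exact permutation p = 0.0286). Stat3 itself was measured at 74.0 to 119 CPM with scopolamine and 56.4 to 96.1 CPM in sham. The receptor subunit Il22ra1 was low, at 0.351 to 2.97 CPM with scopolamine and 0 to 3.07 CPM in sham. Tlr2, a sensor of bacterial lipopeptides that the filter removed, had 69, 99, 1 and 71 counts in scopolamine replicates 1 to 4 and 1, 1, 0 and 0 counts in sham replicates 1 to 4. It was called by DESeq2 (adjusted p = 0.000473) and not by edgeR on all genes with a count (adjusted p = 0.587). Socs3, Il22ra1 and Tlr2 are named here after their values were seen.

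Of 12 further antimicrobial and barrier genes tested, 9 were higher and 3 lower, for a median log2 fold change of 0.99 and none past the test. The most abundant were Lgals4 (-0.16), Pigr (1.14), the receptor that carries immunoglobulin A into the lumen, and Lgals3 (0.26). Duox2, which makes hydrogen peroxide at the cell surface, was measured at 0.451, 26.4, 15.5 and 27.9 CPM in scopolamine replicates 1 to 4 and at 1.29, 3.97, 0.0248 and 0.179 CPM in sham replicates 1 to 4 (log2 fold change 3.68, standard error 1.39, unadjusted p = 0.0233 in edgeR). As for Ang4, Mmp7, Itln1, Reg3a, Reg3b and Reg3g, scopolamine replicate 1 was the lowest of the scopolamine libraries. Sprr2a3, a small proline-rich protein gene, was at 4.31 to 6.58 CPM with scopolamine and 0.347 to 3.34 CPM in sham, without overlap (log2 fold change 1.97, standard error 0.82, unadjusted p = 0.0359 and adjusted p = 0.812 in edgeR). The groups did not overlap for 3.88% of all genes. Sprr2a2 of the same family was far higher and did overlap, at 118 to 409 CPM with scopolamine and 2.78 to 164 CPM in sham. How reads were split among the Sprr2a copies was not examined.

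With the other members left out, the genes most like 3 of the members in pattern were taken by Pearson's r of log2(CPM + 1). It was taken over the 8 libraries, which share the same depths and totals for all genes. For Lyz1 these were Guca1b, Ntrk2, Npepps, Serp1 and Fam91a1 (r from 0.93 to 0.95). For Reg3b they were Hspa5, Rars, Batf2, Nfe2l2 and Cd74 (r from 0.95 to 0.97). Hspa5, the chaperone of the endoplasmic reticulum, was measured at 355, 610.1, 569 and 932 CPM in scopolamine replicates 1 to 4 and at 661, 367, 485 and 309 CPM in sham replicates 1 to 4. Cd74, the invariant chain of MHC class II, was measured at 93.6, 461, 189 and 736 CPM with scopolamine and at 202, 93.7, 123 and 62.7 CPM in sham. Both were highest in scopolamine replicate 4 and lowest in sham replicate 4, as Reg3b was. For Reg4 the most alike were Stx5a, F830016B08Rik, Lcmt2, Aldh6a1 and Xylt1 (r from 0.94 to 0.96). These are values of 8 libraries of unequal input, given as a description.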

How the data were processed

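Bulk RNA of sorted ZSgreen-positive cells was analysed for 4 scopolamine and 4 sham libraries. The authors trimmed adaptors during conversion with bcl2fastq 2.20, assigned reads to the GRCm38 transcriptome with kallisto 0.44.0, summarised them per gene with tximport and deposited estimated counts without normalization. The deposited estimated counts are whole numbers, and rounding before testing changed none. The annotation release, the use of strand and the word length of the index are not given in the sources used here. Groups come from the labels, and RNA input and cycles from the study's source data. Each replicate is 1 mouse.

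Counts were tested with edgeR 4.0.16 in R 4.3.3 (quasi-likelihood, TMM, filterByExpr, Benjamini-Hochberg adjusted p under 0.1 over 12849 genes), with standard errors taken as the log2 fold change over the square root of F. Single genes were also compared by two-sided exact permutation tests over 70 assignments (SciPy 1.17.1), unadjusted, for which 0.0286 is the smallest p. Related copies were also summed before the fit. A library's CPM use TMM library sizes, whereas floors use plain library totals and cover counting error only. Alternatives were DESeq2 1.42.0, other scalings, filters and thresholds, covariates, thinning to the smallest total, other pseudocounts and leaving out libraries. The scripts were tested on simulated data.

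Positions, exon lengths and the 31-base words (the default length of kallisto) of 141767 transcripts are from GENCODE M21 on GRCm38, and promoters are from RefSeq on GRCm38.p6. The members and lists were chosen with earlier results of these data known. Named outside the members were, in each list, genes with an unadjusted p under 0.05 (at most 5) and the 3 most abundant, and the 5 genes most alike to Lyz1, Reg3b and Reg4. Named outside that rule, after their values were seen, are Socs3, Il22ra1, Csf1r, Adgre1, C1qa, C1qb, C1qc, Cd68, genes that only complete a named list, and genes called by other settings. A gene of the marker lists is not reported here.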

Additional observations from a re-analysis of the deposited data

Results flagged for a closer look

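In each group of 4 libraries, the highest and the lowest level of each of the 10 genes were compared with the nearest of the others by Dixon's criterion. Of 20 groups, 5 had a library that stood apart, where chance gives about 1 in 20 for normal values. The CPM are skewed, and over all genes tested 7.29% of such groups had a library that stood apart. Scopolamine replicate 4 stood apart from the other scopolamine libraries for Lyz1 at 488 CPM, for Itln1 at 416 CPM, for Defa24 at 300.3 CPM and for Reg4 at 96.6 CPM. Sham replicate 3 stood apart from the other sham libraries for Reg4 at 95.7 CPM. The levels of 1 library are not independent between genes.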

How the results depend on the processing

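No paired analysis was possible because the labels give no replicate numbers that the groups share. The letter of the mouse ID crosses the groups without pairing mice, and as a covariate it changed no call (median of the 10 genes 1.75). Of 168 values of the 10 genes under alternatives, summed families left out, 163 kept their direction. None of the 166 with an adjusted p passed the threshold, the smallest being 0.174, and DESeq2 gave none for Lyz1 and Reg4. The 5 others reversed, namely Defa24 (-0.53) and Reg4 (-1.85) without scopolamine replicate 4, and Reg4 without sham replicate 1 (-0.11), 2 (-0.23) and 4 (-0.23). Over the fits that left out 1 library, Defa24 ran from -0.53 to 1.62 and Reg4 from -1.85 to 3.46. The number of genes called over the whole table was 0 in the main test, 193 with DESeq2, 9 without the 200 pg libraries and 5 with amplification cycles as a covariate, and ran from 0 to 2 over the fits that left out 1 library (1 without scopolamine replicate 4, 2 without sham replicate 1). Of other Paneth and antimicrobial genes DESeq2 called 5 (Tlr2, Nupr1, Reg1, Bhlha15 and Pla2g2f), beside 0.66% of the 21805 genes with a count called as higher. All of these but Reg1 were removed by the filter on low counts, and those had at most 99 counts in any library. Sprr2a2 was the 1 called without the 200 pg libraries and the 1 called with cycles as a covariate. The cause was not tested. The median of the 10 genes was 2.99 with that covariate. Ang4 and Reg4 have no value where at least 10 counts were required in every library.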
